A study of Rattus norvegicus with 24 samples.

Results

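The genes of MHC class I antigen presentation were followed through the hippocampus of female rats with and without ovaries and estradiol. They were chosen by symbol from a list of 9: the class I gene RT1-T24-4, B2m, Tap1, Tap2, Tapbp, Psmb8, Psmb9, Psmb10 and Nlrc5. Of these, 8 are among the 20318 features of the table, all 8 passed the filter on low values (a mean of at least 10 normalised counts), and Tap2 is not analysed here. RT1-T24-4 and the class I list were picked because they were lower in rats given estradiol from the start than in ovariectomised rats on vehicle. Values of the members in that contrast are therefore given as a description, without p-values. Whether a member passed there restates that choice and is no separate evidence.

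The 24 bulk RNA-seq libraries fell into 4 groups of rats aged 6 months. SHAM rats (n = 7) kept their ovaries and had 7 weeks of vehicle, and OVX rats (n = 7) lost their ovaries and also had 7 weeks of vehicle. The group labelled OVX_E2_Prevention (n = 5, below Prevention) lost the ovaries and had 5 weeks of estradiol (E2), the main ovarian estrogen. The group labelled OVX_E2_Treatment (n = 5, below Treatment) lost the ovaries and had 3 weeks of vehicle before 2 weeks of estradiol. The labels thus give 7 weeks to the vehicle groups and 5 weeks in all to the estradiol groups, so length of treatment and estradiol cannot be told apart. Dose, route and strain are not given in the labels.

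MHC class I molecules show peptides from inside the cell to CD8 T cells and to receptors of natural killer cells. The immunoproteasome cuts proteins into peptides, the TAP transporter carries them into the endoplasmic reticulum, and tapasin holds the empty heavy chain and its light chain beta-2 microglobulin at the transporter until a peptide binds. Most of these genes are induced by interferons, and NLRC5 is the transactivator of class I promoters. In the healthy brain class I levels are low in neurons and higher in endothelium and microglia, and class I molecules are also known for a role in the pruning of synapses. In the rat the class I region is called RT1, and it holds many similar genes in numbers that vary between strains.

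Promoters are shown because the members are known as interferon-induced genes and because some of them varied together between libraries. RefSeq windows on build GRCr8, from 250 bases before to 50 bases after a gene's outermost start, were found for 8 of the 9 listed genes. They were searched on both strands for the core of the interferon-stimulated response element, GAAA and GAAA with any 2 bases between them. The core occurred in 6 of the 8 windows, those of B2m, Tap1, Tap2, Tapbp, Psmb8 and Psmb10, against 3.92% of 33469 rat promoters of the same length. It was not found in the windows of RT1-T24-4 and Psmb9, and sequence outside the windows was not searched for them. The RT1-T24-4 window covers only the outermost start of 11 RefSeq transcripts. Printed here are the 2 windows without a match, that of B2m, and those of Tap1 and Psmb8, which lie close to Psmb9. They are printed from 250 bases before to 10 bases after the start. Capitals mark the core on either strand. The coordinates are chr20:2689083-2689342, plus strand for RT1-T24-4, chr3:129549080-129549339, plus strand for B2m, chr20:4668534-4668793, minus strand for Tap1, chr20:4657022-4657281, minus strand for Psmb8, and chr20:4668750-4669009, plus strand for Psmb9.
RT1-T24-4: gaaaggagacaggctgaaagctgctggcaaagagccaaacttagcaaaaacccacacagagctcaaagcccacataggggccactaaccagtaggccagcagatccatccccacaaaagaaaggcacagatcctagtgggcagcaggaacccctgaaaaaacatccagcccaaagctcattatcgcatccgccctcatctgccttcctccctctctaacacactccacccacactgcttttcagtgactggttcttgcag
B2m: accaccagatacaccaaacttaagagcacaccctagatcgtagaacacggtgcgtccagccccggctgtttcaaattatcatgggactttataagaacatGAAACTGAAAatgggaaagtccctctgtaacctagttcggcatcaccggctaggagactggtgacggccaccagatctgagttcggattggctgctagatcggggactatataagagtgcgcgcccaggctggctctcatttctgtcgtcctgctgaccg
Tap1: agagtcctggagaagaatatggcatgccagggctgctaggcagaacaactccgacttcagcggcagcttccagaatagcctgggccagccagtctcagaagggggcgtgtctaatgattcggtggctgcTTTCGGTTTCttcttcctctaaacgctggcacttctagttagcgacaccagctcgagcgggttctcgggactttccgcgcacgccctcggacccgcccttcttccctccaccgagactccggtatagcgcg
Psmb8: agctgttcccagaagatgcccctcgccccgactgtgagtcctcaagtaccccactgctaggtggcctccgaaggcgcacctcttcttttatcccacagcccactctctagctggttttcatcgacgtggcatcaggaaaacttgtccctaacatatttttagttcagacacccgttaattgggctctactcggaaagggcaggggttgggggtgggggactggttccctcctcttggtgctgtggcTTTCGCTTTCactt
Psmb9: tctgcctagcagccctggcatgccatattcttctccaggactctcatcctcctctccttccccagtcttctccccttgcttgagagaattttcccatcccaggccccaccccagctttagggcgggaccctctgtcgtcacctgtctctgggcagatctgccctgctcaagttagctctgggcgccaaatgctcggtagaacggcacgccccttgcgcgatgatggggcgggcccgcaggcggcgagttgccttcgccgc

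The B2m match lay 150 bases upstream of the start, and the Tap1 match lay 121 bases upstream. The Psmb8 match spanned the start itself. Tapbp held 2 overlapping matches that began 26 and 20 bases upstream, and Psmb10 held 2 that began 73 and 17 bases upstream. Tap2, Psmb8, Tap1 and Psmb9 follow each other on chromosome 20 with no other annotated gene between them. Tap1 and Psmb9 are read in opposite directions from starts 457 bases apart, and their windows share 44 bases. The Tap1 match lies between these 2 starts, beyond the upstream end of the Psmb9 window, so Psmb9 lacks a match in its window only. Tapbp and RT1-T24-4 also lie on chromosome 20, B2m on chromosome 3, and Psmb10 and Nlrc5 on chromosome 19. The interferon gamma-activated site TTCNNNGAA occurred in the Psmb8 window alone, against 8.87% of promoters, and the CCAAT box in those of B2m, Psmb8 and Psmb9, against 37.5%. The motifs TGACGT and TGACGC, which resemble part of the class I enhancer, occurred in none of the 8 windows, against 7.94% and 6.73% of promoters. The palindromic estrogen response element, GGTCA and TGACC with 3 bases between them, was in none of them, against 0.0269%. The arm GGTCA by itself was in those of B2m, Tap2 and Tapbp, against 40.5%. A match is a run of letters and not a site shown to be bound.

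Levels are normalised counts, which do not correct for gene length, so they are compared between groups and not between genes. RT1-T24-4 encodes a class I heavy chain of the RT1-T24 subgroup, and its level is uncertain because reads may be shared with similar RT1 genes. In SHAM its normalised counts ran from 678 to 923 with a median of 779 (795 ± 74.5, mean ± SD, n = 7). In OVX they ran from 747 to 1161 with a median of 982 (1008 ± 139.5, n = 7). In Prevention the libraries gave 681, 669, 704, 678 and 667 (680 ± 15.0, n = 5). In Treatment they gave 970, 767, 839, 1005 and 677 (852 ± 137, n = 5). The 5 Prevention libraries lay close together and below all 7 OVX libraries, with a coefficient of variation of 2.20%, against 9.38% in SHAM, 13.8% in OVX and 16.1% in Treatment. Of the 7 OVX libraries, 6 lay above every SHAM library, and the lowest, OVX 1, lay within the SHAM range. Treatment overlapped every other group, with 3 of 7 OVX libraries above all 5 of Treatment.

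By mean, RT1-T24-4 ordered as Prevention, SHAM, Treatment and OVX, from low to high. The change between Prevention and OVX was -0.55 on the log2 scale, a description since this contrast chose the gene. It lost its call in several other fits, which are given with the processing below. OVX exceeded SHAM by 0.33 ± 0.089 (log2, SE). This was the 6th smallest p of 16119 but did not pass after adjustment (limma, adjusted p = 0.795). No pair of neighbours in that order passed after adjustment. Prevention against SHAM gave a log2 change of -0.22 (95% interval -0.42 to -0.018; limma, adjusted p = 0.326). Treatment against SHAM gave 0.09 (-0.11 to 0.29, adjusted p = 0.924), and Treatment against OVX gave -0.24 (-0.45 to -0.043, adjusted p = 0.679). Treatment against Prevention gave 0.31 (0.092 to 0.53, adjusted p = 0.698), with 4 of 5 Treatment libraries above all 5 of Prevention. In bulk RNA, fewer cells of a type and less RNA per cell cannot be told apart. Contrasts with OVX or Prevention share libraries with the one that chose the gene, and Treatment against SHAM alone shares none.

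**Figure D1:**
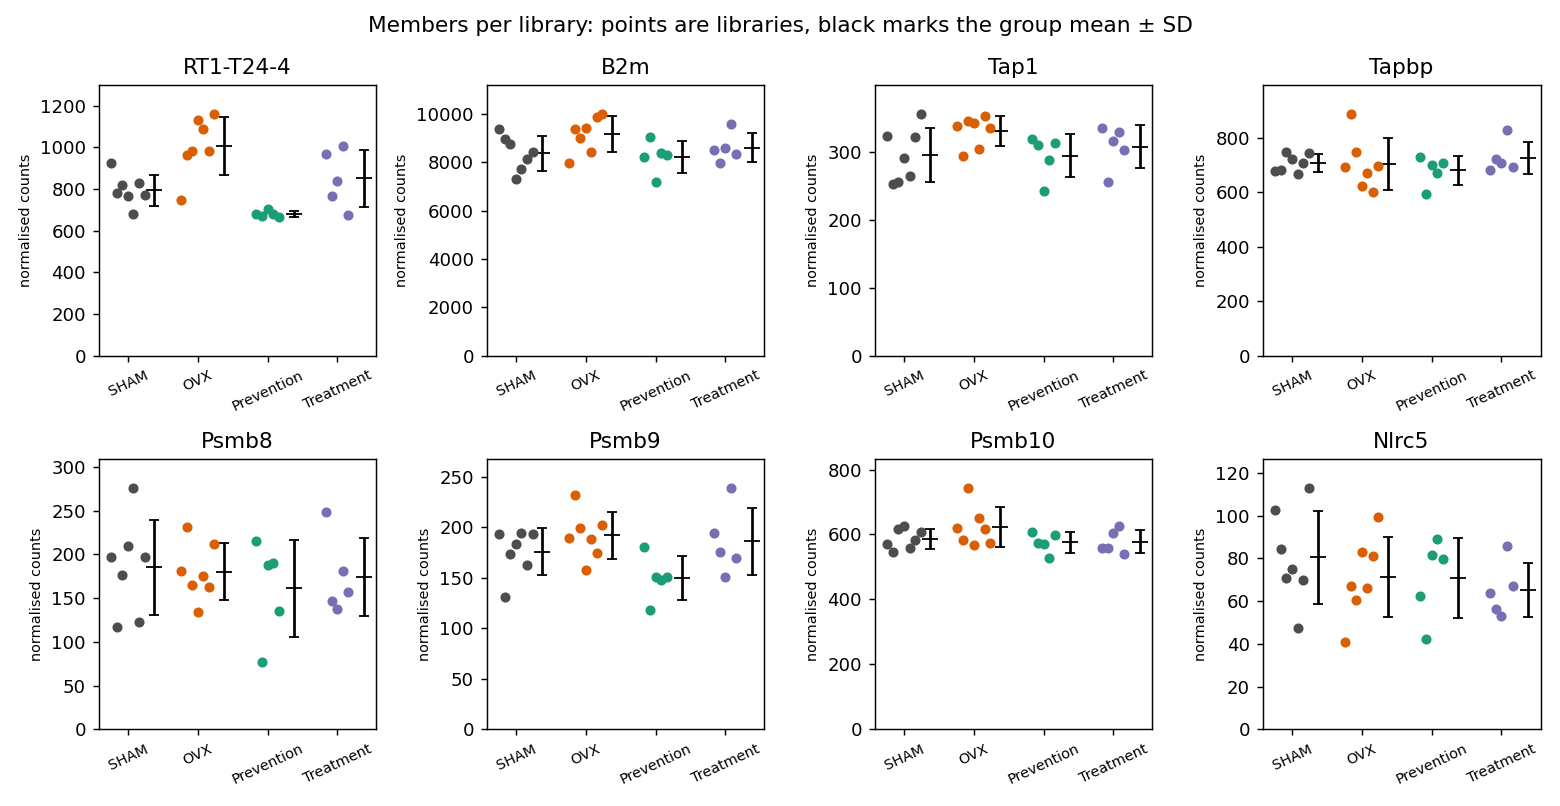
Normalised counts (y axis, from 0) of the 8 members in each library (points) by group, with the group mean ± SD in black beside them. The 5 Prevention libraries of RT1-T24-4 sit between 667 and 704, below all 7 OVX libraries, while the groups of the other 7 genes overlap.

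The light chain B2m, which every classical class I heavy chain needs to reach the cell surface, had the same order of means but smaller differences. Its normalised counts ran from 7284 to 9383 with a median of 8407 in SHAM (8375 ± 729, n = 7), and from 7960 to 9998 with a median of 9381 in OVX (9151 ± 742, n = 7). In Prevention they were 8212, 9030, 7182, 8365 and 8310 (8220 ± 664, n = 5). In Treatment they were 8507, 7971, 8579, 9587 and 8337 (8596 ± 602, n = 5). All 4 groups overlapped, with 3 of 7 OVX libraries above all SHAM libraries and 4 of 7 above all Prevention libraries. The log2 change of OVX against SHAM was 0.13 ± 0.061 (SE; limma, adjusted p = 0.795). Prevention lay 0.15 below OVX in means of log2 values, with no test (-0.15).

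Tap1 encodes a subunit of the peptide transporter and Tapbp encodes tapasin. Tap1 ran from 254 to 357 normalised counts with a median of 291 in SHAM (296 ± 40.1, n = 7), and from 295 to 354 with a median of 340 in OVX (331 ± 22.3, n = 7). Its Prevention libraries gave 320, 311, 243, 289 and 315, and its Treatment libraries gave 336, 256, 316, 330 and 304. The OVX libraries of Tap1 lay in the upper part of the SHAM range: 4 of 7 SHAM libraries were below all OVX libraries and 1 was above them all. The log2 change of OVX against SHAM was 0.17 ± 0.085 (SE; limma, adjusted p = 0.796). Prevention and SHAM had nearly equal means, with a log2 change of 0.0028 (95% interval -0.19 to 0.19; limma, adjusted p = 0.993).

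Tapbp ran from 665 to 749 normalised counts with a median of 708 in SHAM, and from 602 to 888 with a median of 694 in OVX. Its Prevention libraries gave 728, 594, 701, 669 and 707, and its Treatment libraries 681, 722, 707, 829 and 692. Its groups overlapped throughout, and its log2 changes lay between -0.058 and 0.095. Treatment 6 stood above the other 4 Treatment libraries.

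The immunoproteasome subunits are catalytic subunits that replace the standard ones when cells meet interferon. Psmb8, also called LMP7, had the widest spread among them. It ran from 117 to 276 normalised counts with a median of 197 in SHAM (185 ± 54.6, n = 7), and from 134 to 232 with a median of 176 in OVX (180 ± 32.4, n = 7). Its Prevention libraries gave 216, 76.9, 188, 190.5 and 135, and its Treatment libraries 248, 147, 137, 181 and 157. The lowest value of all was in Prevention 2 and the highest in SHAM 5, and every pair of groups overlapped. Its log2 change of OVX against SHAM was -0.0026, with a 95% interval of -0.43 to 0.43 (limma, adjusted p = 0.999).

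Psmb9, or LMP2, ran from 131 to 194 normalised counts with a median of 184 in SHAM (176 ± 23.2, n = 7), and from 158 to 232 with a median of 190 in OVX (192 ± 23.3, n = 7). Its Prevention libraries gave 181, 118, 151, 148 and 151 (150 ± 22.1, n = 5), and its Treatment libraries 194.5, 176, 151, 239 and 170 (186 ± 33.6, n = 5). Of the 5 Prevention libraries, 4 lay below all OVX libraries, and Prevention 1 lay inside the OVX range. The log2 change between Prevention and OVX was -0.36, with no test. Treatment against Prevention gave 0.31 ± 0.13 (SE; limma, adjusted p = 0.855), and OVX against SHAM gave 0.13 ± 0.11 (SE; adjusted p = 0.903).

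Psmb10, or MECL-1, varied least of the 3 subunits relative to its mean in each group. It ran from 546 to 625 normalised counts with a median of 582 in SHAM (586 ± 30.9, n = 7), and from 568.5 to 744 with a median of 618 in OVX (623 ± 61.3, n = 7). Its Prevention libraries gave 609, 573, 569, 527 and 600, and its Treatment libraries 558, 557.5, 604, 625 and 541. Prevention and Treatment had nearly equal means, with a log2 change of 0.0035 (95% interval -0.14 to 0.14; limma, adjusted p = 1.00).

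Each inducible subunit was also set against the standard subunit whose place it takes, for Psmb8 with Psmb5 and for Psmb10 with Psmb7. The log2 ratio of Psmb8 to Psmb5 averaged -4.10 ± 0.44 (SD) in SHAM, -4.11 ± 0.30 in OVX, -4.26 ± 0.53 in Prevention and -4.15 ± 0.41 in Treatment. The ratio of Psmb10 to Psmb7 averaged -2.87 ± 0.13, -2.85 ± 0.079, -2.91 ± 0.10 and -2.93 ± 0.12 in the same order. These ratios depend on transcript length and are compared between groups only. Of 10 exact permutation tests over libraries (two-sided, without Prevention against OVX), 0 passed, 0 had an unadjusted p under 0.05, and the smallest adjusted p was 0.971. The largest difference tested, Psmb8 to Psmb5 in Prevention against SHAM, was -0.15, less than the SD of either group.

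Nlrc5, the transactivator of class I genes, had low values and a wide spread. It ran from 47.4 to 113 normalised counts with a median of 75.1 in SHAM (80.4 ± 21.95, n = 7), and from 40.8 to 99.4 with a median of 67.2 in OVX (71.2 ± 18.7, n = 7). Its Prevention libraries gave 62.5, 42.2, 81.5, 89.1 and 79.5, and its Treatment libraries 63.6, 56.2, 53.1, 85.7 and 67.1. The groups overlapped, and unlike the order of RT1-T24-4 its highest mean was in SHAM. The log2 change of OVX against SHAM was -0.17 ± 0.20 (SE; limma, adjusted p = 0.923).

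Counted over the members, 0 of 8 passed limma in OVX against SHAM, where 0% of all 16119 genes passed. At an unadjusted p under 0.05, 2 of 8 were higher in OVX (RT1-T24-4 and B2m), against 2.88% of all genes. Libraries of the contrast that chose the list also enter every other contrast except Treatment against SHAM. Counts of members in those contrasts are not independent of that choice. In Prevention against OVX, 1 of 8 (RT1-T24-4) passed, against 0.304% of all genes in either direction and 0.105% lower in Prevention, a count that the choice of the gene fixed. The count was 0 without Prevention 1, without Prevention 3, and with the library set described below as a term. With that term 0 of all genes passed. All 8 log2 changes there were negative, as were 49.8% over all genes, with a median of -0.16 beside 0.00081 over all genes. The signs of Nlrc5, Tapbp and Psmb8 were not stable there, turning positive under 11, 4 and 1 of the alternatives. For non-overlapping groups, RT1-T24-4 was the single member wholly lower in Prevention, as were 0.664% of all genes. In Treatment against OVX 0 of 8 passed, with 0% of all genes, and 1 (RT1-T24-4) was lower at an unadjusted p under 0.05, against 3.09%. In Treatment against Prevention 0 of 8 passed, with 0% of all genes, and 2 (RT1-T24-4 and Psmb9) were higher at that unadjusted threshold, against 2.76%. In Prevention against SHAM 0 of 8 passed, beside 0.354% of all genes, and 1 (RT1-T24-4) was lower unadjusted, against 5.85%. In Treatment against SHAM 0 of 8 passed, beside 0.0062% of all genes, and 0 did so unadjusted, against 6.1%. Median log2 changes of the members were 0.11 in OVX against SHAM, -0.095 in Treatment against OVX, 0.080 in Treatment against Prevention, -0.12 in Prevention against SHAM and 0.038 in Treatment against SHAM. Over all genes each of these medians lay between -0.0023 and 0.0043.

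**Figure D2:**
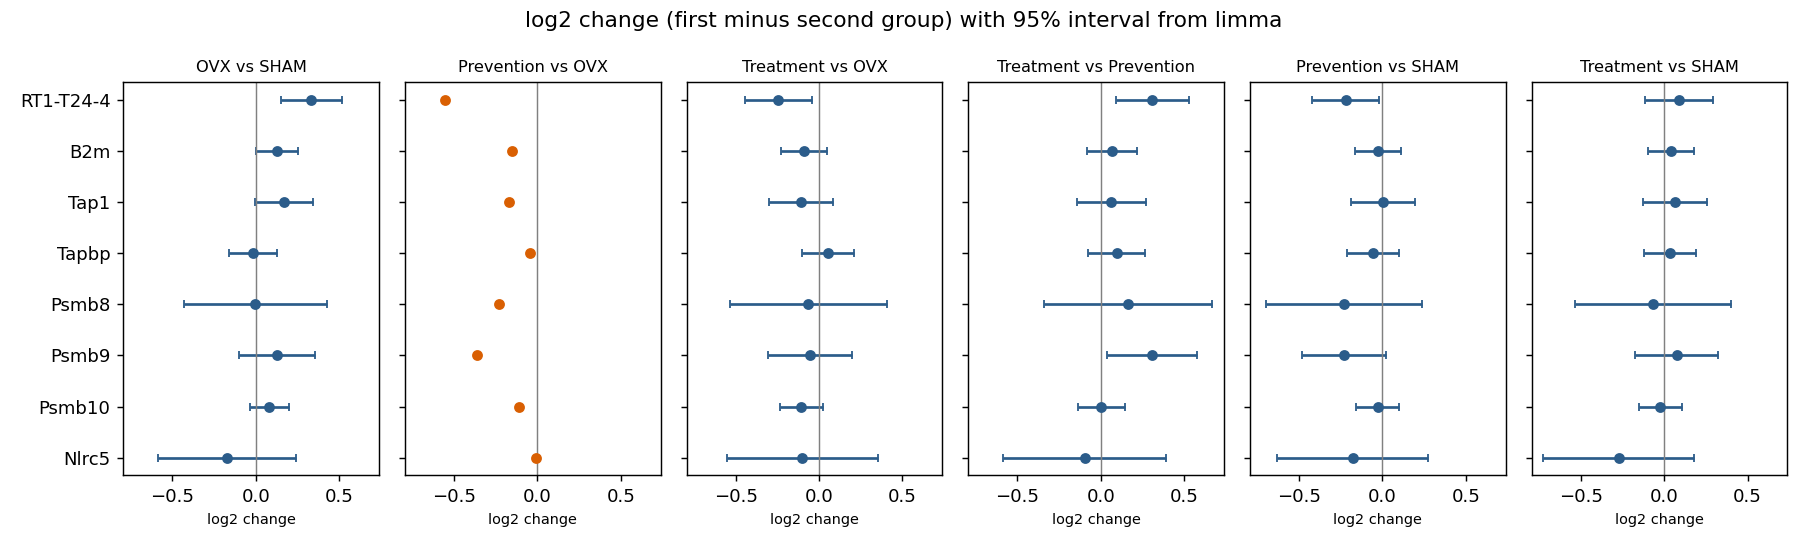
Change on the log2 scale (x axis) of the 8 members (rows) in the 6 contrasts, first group minus second, with 95% intervals from limma in blue; the panel of Prevention vs OVX has points alone, in orange, since that contrast chose RT1-T24-4. RT1-T24-4 is farthest from 0 among the members in OVX vs SHAM (0.33) and in Prevention vs OVX (-0.55), and Nlrc5 and Psmb8 have the widest intervals.

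Within groups, 4 of 28 pairs of members varied together by Pearson's r and 1 by Spearman's rho, and Tap1 and Psmb10 were in none of them. The share among pairs of genes in general was not computed, so these counts have nothing to be set against. Deviations from the group mean were correlated for all 28 pairs over the 24 libraries, with 100000 permutations within groups and adjustment over the 28 pairs. Psmb8 and Psmb9 had the closest relation, with Pearson's r = 0.788 (permutation p = 3e-05, adjusted 0.00084) and Spearman's rho = 0.813 (p = 1e-05, the smallest these permutations can give, adjusted 0.00028). Its r was 0.761 without the 2 libraries farthest from the median of Psmb8, Prevention 2 and SHAM 5, 0.922 within OVX and 0.857 within SHAM. The remaining relations past the threshold were Tapbp with Psmb9, RT1-T24-4 with Nlrc5 and RT1-T24-4 with B2m, by Pearson's r alone.

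Tapbp and Psmb9 gave r = 0.677 (permutation p = 0.00042, adjusted 0.00588) and rho = 0.59 (p = 0.00433, adjusted 0.0606), with r = 0.663 without the 2 libraries farthest in Tapbp, OVX 2 and OVX 6. It was 0.913 within OVX but 0.148 within SHAM. RT1-T24-4 and Nlrc5 gave r = 0.595 (permutation p = 0.00169, adjusted 0.0158) and rho = 0.472 (p = 0.0318, adjusted 0.148), with r = 0.565 without the 2 libraries farthest in RT1-T24-4, OVX 1 and Treatment 7, 0.898 within OVX and 0.628 within SHAM. RT1-T24-4 and B2m gave r = 0.541 (permutation p = 0.00707, adjusted 0.0495) and rho = 0.478 (p = 0.0285, adjusted 0.148), with r = 0.442 without the same 2. RT1-T24-4 was nearly unrelated to Psmb8 (r = 0.0352, permutation p = 0.851, adjusted 0.89, rho = 0.053), Psmb10 (r = 0.0577) and Tapbp (r = 0.0361). Without Prevention 2 and Treatment 6, the 2 libraries farthest from their group means over all 8 members, 1 pair passed, Psmb8 with Psmb9 (r = 0.827, permutation p = 5e-05, adjusted 0.0014). The other 3 then gave r = 0.607 for RT1-T24-4 with Nlrc5 (permutation p adjusted to 0.0924), 0.515 for RT1-T24-4 with B2m (0.0949) and 0.532 for Tapbp with Psmb9 (0.0949). Adjacency in the genome and shared variation did not go together throughout: Tap1 and Psmb9, which face each other, gave r = 0.166 (permutation p = 0.485, adjusted 0.731, rho = 0.224).

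**Figure D3:**
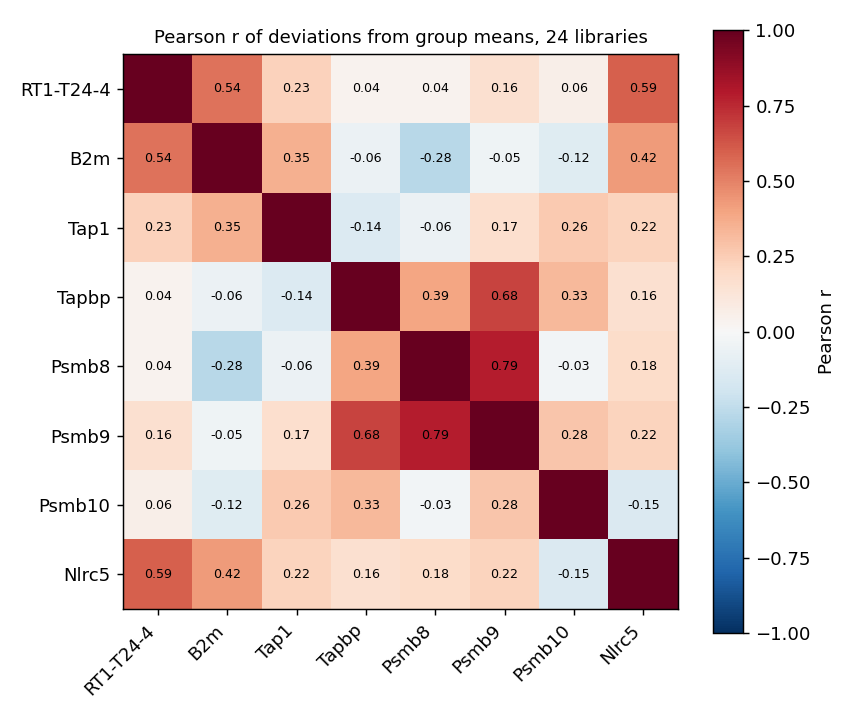
Pearson's r between the deviations of each pair of members from their group means over 24 libraries, on a colour scale from -1 to 1, with r printed in each cell. The highest values are those of Psmb8 with Psmb9 (0.788), Tapbp with Psmb9 (0.677), RT1-T24-4 with Nlrc5 (0.595) and RT1-T24-4 with B2m (0.541).

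The genes most like RT1-T24-4 over the 24 libraries were interferon-induced. Among 13499 genes with a mean of at least 50, the highest Pearson's r was with Irf7 (0.866), the transcription factor that amplifies type I interferon. Next came Usp18 (0.827), which removes ISG15 and restrains interferon signalling, Rtp4 (0.823), Oas1a (0.818), an oligoadenylate synthetase, and Lgals9 (0.815), a galectin. For deviations from group means r was 0.754, 0.727, 0.809, 0.745 and 0.587. These are the highest of many and carry no test, and the libraries behind them also differ by group. Irf7 ran from 120 to 333 normalised counts in SHAM, from 157 to 370 in OVX, from 127 to 162 in Prevention and from 149 to 285 in Treatment. Like RT1-T24-4, it had its narrowest spread in Prevention (141 ± 13.6, n = 5) and its highest mean in OVX (276 ± 84.1, n = 7). Irf7 was picked by r over all libraries, group differences included, so this likeness is no separate evidence.

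The genes most like Psmb8 were others. They were Rnf8 (r = 0.798), a ubiquitin ligase of the DNA damage response, Psmb9 (0.746), Cep164 (0.737), a centriole protein, Fhdc1 (0.734) and Ttf1 (0.726), a factor that ends transcription by RNA polymerase I. For deviations from group means r was 0.826, 0.788, 0.757, 0.736 and 0.729, so Psmb8 followed Rnf8, not a member, more closely than Psmb9. These too are the highest of many and carry no test. None of the 5 is also among those of RT1-T24-4. Rnf8 means ran from 1048 ± 85.2 (SD, n = 5) in Prevention to 1119 ± 51.5 (n = 7) in OVX.

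**Figure D4:**
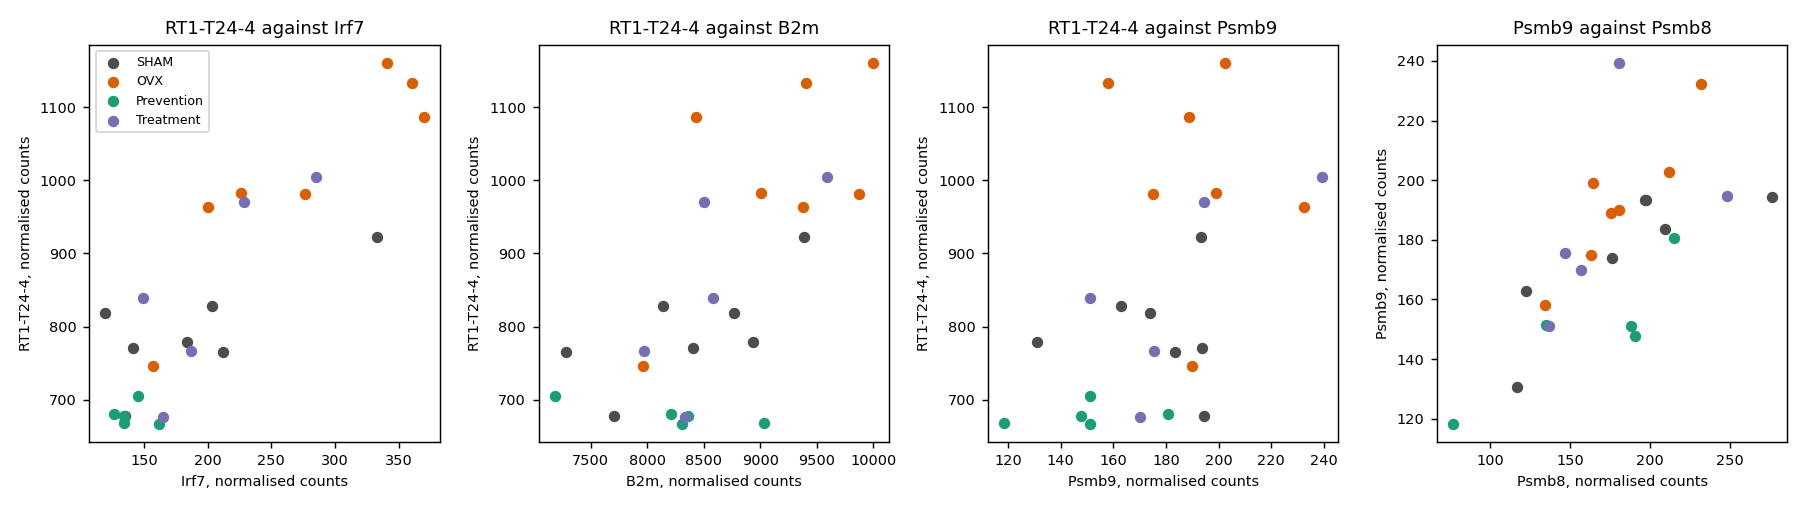
Normalised counts of pairs of genes in 24 libraries, coloured by group, on linear axes that do not start at 0: RT1-T24-4 against Irf7, B2m and Psmb9, and Psmb9 against Psmb8. RT1-T24-4 climbs with Irf7, with the 5 Prevention libraries at the low end of both, and Psmb9 climbs with Psmb8 in all groups.

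The wider list of 30 interferon-induced genes, of which 28 were tested, lay on 1 side in several contrasts. All 28 log2 changes were positive in OVX against SHAM (median 0.22), as were 51.7% over all genes, and 27 of 28 were negative in Prevention against OVX (median -0.30), but 0 passed in either. In OVX against SHAM the smallest p belonged to Mx1, an antiviral GTPase, at 205 against 132 normalised counts (log2 change 0.63; limma, adjusted p = 0.795). Treatment against SHAM, which shares no library with the contrast that chose the members, had 26 of 28 positive (median 0.14), against 51.6% over all genes, with 0 past the threshold. Treatment against Prevention had 24 of 28 positive and Treatment against OVX had 20 of 28 negative. Genes of the list were measured in the same libraries and are not independent of each other, so these counts carry no test. The list was also chosen with earlier results of these data known. The mean log2 value of the list per library ran from 7.08 to 7.80 in SHAM, 7.25 to 7.95 in OVX, 7.25 to 7.35 in Prevention and 7.31 to 7.84 in Treatment. With that mean as a covariate, a fit chosen after seeing the data, the RT1-T24-4 change was 0.14 in OVX against SHAM and -0.30 in Prevention against OVX.

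The genes that carry the interferon signal to class I promoters gave smaller changes. Of 23 tested, 18 were positive in OVX against SHAM and 16 negative in Prevention against OVX, with medians of 0.040 and -0.076 and 0 past the threshold in any of the 6 contrasts. Irf8, a factor of microglia, had 353 ± 57.5 in OVX and 286 ± 15.98 in Treatment (log2 change -0.29; limma, adjusted p = 0.619). Ifngr1, a receptor chain of interferon gamma, had the smallest p of the list in Treatment against SHAM (log2 change 0.16; adjusted p = 0.634).

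Of 11 tested genes for standard proteasome subunits, assembly and activators, all had positive log2 changes in OVX against SHAM (median 0.059) and 10 had negative ones in Prevention against OVX (median -0.086), with 0 past the threshold. Psme1, a subunit of the interferon-inducible PA28 activator, had 1121 ± 66.1 normalised counts in OVX and 1014 ± 73.2 in SHAM (log2 change 0.14; limma, adjusted p = 0.795). Of 16 genes for peptide loading and trimming, 12 were negative in OVX against SHAM and 9 positive in Prevention against OVX, and 0 passed. Lnpep, an aminopeptidase that trims peptides for cross-presentation, had a log2 change of -0.38 in OVX against SHAM (limma, adjusted p = 0.797) and 0.45 in Treatment against OVX (adjusted p = 0.69). Of 5 class I-like molecules tested, 0 passed in any contrast. Procr, the protein C receptor, had a log2 change of 0.45 in Treatment against OVX (adjusted p = 0.673).

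RT1 class I genes, RT1-T24-4 among them, are similar to each other, and kallisto divides reads among similar transcripts, so their separate levels are uncertain. Besides RT1-T24-4 the table holds 26, of which 21 were tested and 0 passed in any contrast. In OVX against SHAM 12 of the 21 changes were positive (median 0.15), beside 51.7% over all genes. In Prevention against OVX 12 were negative (median -0.19), beside 49.8% over all genes. The RT1 genes thus went both ways in each of these contrasts. Of the 3 other RT1-T24 genes, RT1-T24-3 and RT1-T24-2 had their means in the same order as RT1-T24-4, and RT1-T24-1 had its lowest mean in OVX. RT1-T24-3 had 309 ± 49.7 normalised counts in SHAM, 368 ± 68.2 in OVX, 254 ± 66.8 in Prevention and 340 ± 104 in Treatment. Its log2 change in OVX against SHAM was 0.24 (limma, adjusted p = 0.842). RT1-T24-2 had 22.6 ± 7.79, 30.5 ± 11.4, 17.4 ± 5.75 and 27.9 ± 14.97 in the same order of groups, and RT1-T24-1 had 18.5 ± 7.36, 13.7 ± 3.73, 15.8 ± 7.57 and 18.6 ± 10.1. The groups of these 2 low genes overlapped, and their changes in OVX against SHAM were 0.43 and -0.34 (limma, adjusted p = 0.844 and 0.905).

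For RT1-A1, a classical class I gene, 3 libraries stood apart. Its normalised counts were 2734 in SHAM 5, 2190 in Prevention 1 and 1678 in Treatment 7, and ran from 141 to 300 in the other 21. RT1-N3 was also above all others in these 3 (520 to 766 against 272 to 402), and RT1-S3 lay between 726 and 943 there, against 866 to 1445. RT1-T24-4 gave 678, 681 and 677 in the same 3 libraries, the lowest value of SHAM and of Treatment. Without them its log2 change was 0.30 in OVX against SHAM, -0.55 in Prevention against OVX, -0.17 in Treatment against OVX and 0.39 in Treatment against Prevention. RT1-A2, another classical gene, fell into 13 libraries between 31.0 and 83.7 and 11 between 237 and 693, the latter holding 1 of 7 SHAM, 3 of 7 OVX, 2 of 5 Prevention and all 5 Treatment libraries. Its log2 change in Treatment against SHAM was 2.50 (limma, adjusted p = 0.37).

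**Figure D5:**
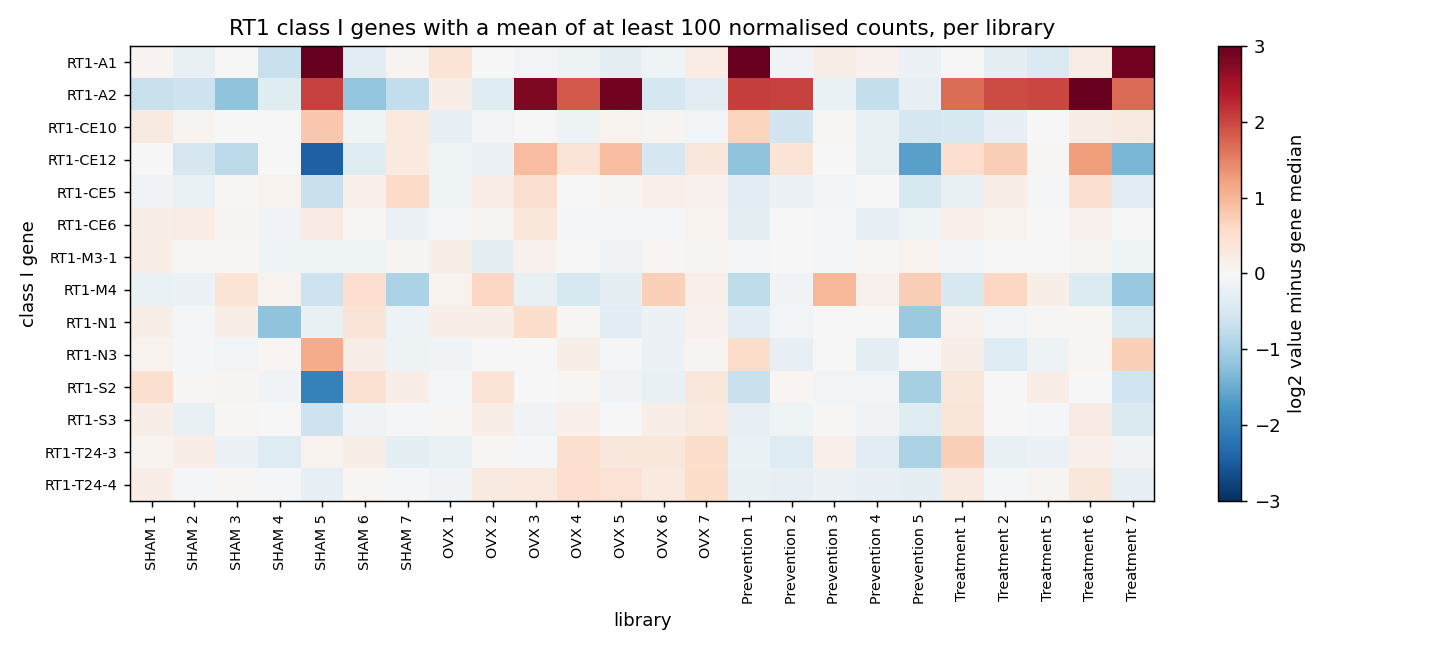
Log2 value of 14 RT1 class I genes (rows) in each of the 24 libraries (columns), less the gene's median, with colours ending at -3 and 3. SHAM 5, Prevention 1 and Treatment 7 stand out in RT1-A1 and RT1-N3, and RT1-A2 is either low or high in a library.

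Markers of other cells were summed beside these results. Microglia markers, all 10 present, summed to 9473 to 12784 normalised counts in SHAM, 10725 to 12924 in OVX, 10143 to 12525 in Prevention and 10553 to 11728 in Treatment. Of their changes in OVX against SHAM, 9 were positive and 1 negative (median 0.12), with 0 past the threshold. With their mean as a covariate the RT1-T24-4 change in OVX against SHAM was 0.33 (limma, adjusted p = 0.991). The part of microglia in that change was not tested. Endothelial markers, 8 of 9 present, summed to 11537 to 13092 in SHAM, 10426 to 12939 in OVX, 12295 to 13702 in Prevention and 12023 to 13911 in Treatment. None of the 8 passed in any contrast (smallest adjusted p 0.051, limma, in Prevention against OVX). In OVX against SHAM 4 of the 8 changes were positive and 4 negative, with a median of -0.017. Of the negative ones, Vwf and Flt1 had an unadjusted p under 0.05 (limma). Vwf had 2397 ± 333 in OVX against 2814 ± 210 normalised counts in SHAM (log2 change -0.24, limma, adjusted p = 0.795). Flt1 had 2586 ± 323 against 2870 ± 214 (-0.16, limma, adjusted p = 0.795). Their part in the results was not tested. T cell markers, 7 of 8 present, summed to 315 to 713 in SHAM, 462 to 610 in OVX, 378 to 615 in Prevention and 340 to 674 in Treatment, nearly all from Cd3e, Cd4 and Lck, and their part in the results was not tested. Cd8a, which binds class I, reached at most 8.02 in any library and Cd3g at most 4.14. Of the receptors of class I molecules, 4 of 13 were tested and 0 passed. B cell markers summed to at most 14.9 in any library, with 0 tested. Neuronal markers of the hippocampus were high in all groups (212367 to 315413 in sum). Choroid plexus markers ranged from 493 to 157189 and thalamus markers from 2328 to 16057 across libraries, with a wide range in every group. With the choroid score as a covariate the RT1-T24-4 change in OVX against SHAM was 0.32, and with the thalamus score 0.33.

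A further split touched Prevention alone as a group. In 7 libraries, all 5 of Prevention and Treatment 1 and 2, the feature LOC257642 had log2 values of 16.8 to 19.7, against 14.0 to 15.2 in the other 17. What sets these libraries apart is not given in the labels, and for Prevention it cannot be told apart from estradiol except through the Treatment group. With the library set as a term, the RT1-T24-4 change was -0.61 in Prevention against OVX. Only Treatment has libraries on both sides of the split, so the term rests on that group alone. In that fit 0 of all genes passed in Prevention against OVX. Within the other 17 libraries Treatment against OVX was -0.27 and OVX against SHAM was 0.33, so the difference between OVX and SHAM does not involve that split.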

How the data were processed

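Of the sequencing batches, the genome build and the annotation, the sources used here say nothing. RNA came from TRIzol and PureLink columns with DNase treatment, per the labels' protocols. The submitters' processing notes name kallisto 0.43, which assigns reads to transcripts without aligning them to the genome, and DESeq2 with no version. The authors deposited 1 table of normalised counts, which is a signal with no absolute unit for each gene in each library. The values are not whole and reads could not be recovered from them, so the depth behind a value is unknown and its precision rests on the spread between libraries. Column totals ran from 35.4 to 38.8 M (mega).

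Values were analysed as log2(normalised count + 1) with limma 3.58.1 in R 4.3.3. Features with a mean of at least 10 over the 24 libraries were tested, 16119 of 20318. All libraries entered 1 fit with a mean per group, empirical Bayes with a mean-variance trend and 6 contrasts. P-values were adjusted by Benjamini-Hochberg over all tested features, with a threshold of 0.05. Ratios of subunits were compared by exact two-sided permutation tests over libraries. Correlations used deviations from group means and 100000 permutations within groups. Promoters, neighbouring genes and transcript numbers are those of RefSeq on GRCr8, which need not be the build behind the values. The steps were tested on simulated data. Figures were drawn with matplotlib 3.10.9.

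The members and all lists were chosen with earlier results of these data known. The plan was to name the listed genes and the RT1 class I genes with a mean of at least 100. It also held the 5 genes following RT1-T24-4 and the 5 following Psmb8 most closely. It further held, per contrast, up to 3 members with the lowest p in each pathway list. Those lists were peptide loading, proteasome, interferon signalling, interferon-induced genes, class I receptors and class I-like molecules. Of the RT1 genes and of these lists only a part is named here, so the genes named are not a complete account. Lists of cell type markers were summed. List members named beyond this plan were picked after their values were seen. Tap2 and Psmb6 are not analysed here, so 2 of the 3 planned subunit ratios were computed. The labels do not tie a library to an animal, so p-values measure the spread between these libraries.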

Additional observations from a re-analysis of the deposited data

Results flagged for a closer look

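Values of the 8 members and of the 13 other RT1 class I genes with a mean of at least 100 were searched in each group for a library far from the rest, by Dixon's criterion, in 84 sets of values. Chance flags about 1 in 20 such sets, and 11 values stood out. Of these, 1 belonged to a member: Tapbp at 829 normalised counts in Treatment 6, against 681 to 722 in the other 4 Treatment libraries. That library also had the highest RT1-T24-4, B2m, Psmb9, Psmb10 and Nlrc5 of its group, while Treatment 1 had the highest Tap1 and Psmb8.

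The other 10 came from the RT1 genes. RT1-A1 was far above its group at 2190 in Prevention 1, 2734 in SHAM 5 and 1678 in Treatment 7. RT1-N3 was high at 520 in Prevention 1 and at 766 in SHAM 5. SHAM 5 also stood out with 306 for RT1-A2, 345 for RT1-CE10 and, as the lowest of its group, 33.1 for RT1-S2. RT1-A2 reached 693 in Treatment 6 and RT1-CE6 reached 659 in OVX 3. What sets these libraries apart was not tested.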

How the results depend on the processing

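In the 5 contrasts with a test, 1559 of 1619 comparisons of a member's change with an alternative kept their direction and side of the threshold, 60 changed sign and 0 crossed the threshold. In Prevention vs OVX, 295 of 319 kept both, 16 changed sign (Nlrc5 in 11, up to 0.47, Tapbp in 4 and Psmb8 in 1) and 8 crossed the threshold (RT1-T24-4 in 7). With each library left out, the RT1-T24-4 change lay between 0.30 and 0.40 in OVX vs SHAM and between -0.62 and -0.52 in Prevention vs OVX. In Prevention vs OVX its sign could not change this way, since all 5 Prevention libraries lay below all 7 OVX libraries. The number of members called in Prevention vs OVX was 1, and became 0 with the 2 groups alone in the fit, with the replicate block, with the library set as a term, with the interferon-induced score as a covariate, and without the 3 libraries high in RT1-A1. In these fits 5, 3, 0, 0 and 1 of all genes passed, in that order, against 49 in the main fit. The number of members was 2 with the thalamus score, adding Psmb9, in a fit where 639 of all genes passed. It ranged from 0 to 1 with each library left out, falling to 0 without Prevention 1 and without Prevention 3. That contrast chose the list, so these counts are a description. The other contrasts stayed at 0 members under every setting run. Correlated pairs numbered 4, and 1 without Prevention 2 and Treatment 6. Whether replicate numbers pair the samples is not given in the labels. Same-numbered deviations correlated between -0.326 and 0.265 for OVX and SHAM, above 0.1 in 1 of 7. They were above 0.1 in 2 of 5 in Prevention vs OVX and in Prevention vs SHAM, and in 1 in each contrast of Treatment. These correlations cannot decide whether same-numbered samples share an origin. The replicate block gave RT1-T24-4 0.33 in OVX vs SHAM and -0.55 in Prevention vs OVX. With the interferon score the change of Nlrc5 in Prevention vs OVX moved to 0.47 and that of RT1-T24-4 to -0.30.

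In the 5 contrasts with a test, changes of sign were confined to uncalled changes of at most 0.102 in size under the alternative, and their cause was not tested. Psmb8 in OVX vs SHAM became 0.0027 with upper quartile rescaling, 0.012 with library weights, 0.034 with the microglia score and 0.10 without the 3 RT1-A1 libraries, and without these Psmb8 in Treatment vs SHAM became 0.066. With the interferon score, Nlrc5 in Treatment vs OVX became 0.059, B2m in Treatment vs Prevention -0.0081, Tap1 there -0.0094, B2m in Prevention vs SHAM 0.0015, and in Treatment vs SHAM RT1-T24-4 -0.015 and B2m -0.0067. Library weights gave -0.019 for Psmb10 in Treatment vs Prevention and -0.0056 for RT1-T24-4 in Treatment vs SHAM. The library set as a term gave -0.0039 for Tap1 and -0.044 for Psmb10 in Treatment vs Prevention, 0.073 for B2m, 0.020 for Tapbp and 0.052 for Psmb10 in Prevention vs SHAM, and 0.0083 for Psmb10 in Treatment vs SHAM, as did the low set alone (0.0083). The replicate block gave -0.016 for Tap1 in Treatment vs Prevention, the thalamus score -0.0086 for Psmb10 and the choroid plexus score 0.0079 for Nlrc5. Tap1 in Prevention vs SHAM became -0.013 with quantile normalisation, -0.0027 with upper quartile rescaling, -0.020 with the choroid plexus score, -0.0012 with the microglia score and -0.053 without the 3 libraries. Leaving out each library moved Psmb8 from -0.10 to 0.10 in OVX vs SHAM, -0.36 to 0.013 in Prevention vs SHAM, -0.20 to 0.013 in Treatment vs OVX, -0.079 to 0.29 in Treatment vs Prevention and -0.20 to 0.038 in Treatment vs SHAM. It moved Psmb9 from -0.15 to 0.015 in Treatment vs OVX and -0.020 to 0.14 in Treatment vs SHAM, Psmb10 from -0.048 to 0.0044 in Prevention vs SHAM and -0.028 to 0.026 in Treatment vs Prevention, and B2m from -0.061 to 0.021 and -0.00051 to 0.068 in Prevention and Treatment vs SHAM. Tap1 ran from -0.032 to 0.071 in Prevention vs SHAM and -0.0064 to 0.13 in Treatment vs Prevention, and Tapbp from -0.074 to 0.019 in OVX vs SHAM and -0.011 to 0.059 in Treatment vs SHAM. Depth per gene is unknown, and low genes such as Nlrc5 are limited by their spread.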
